A study of Mus musculus with 6 samples.

Results

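Sensory neurons labelled with DiI and coded L6-R were compared with control neurons coded L3-B, both from mouse dorsal root ganglia. The comparison rests on 4 of the 6 arrays of the study, chosen by the code in the sample title. Each L6-R array measured total RNA from 20 neurons retrogradely labelled with DiI, a lipophilic dye that spreads along the axon back to the cell body. Each L3-B array measured total RNA from 50 neurons described as controls. For both codes 1 array held neurons of big diameter and 1 array held neurons of medium to small diameter, so L6-R and L3-B were paired by size class. The other 2 arrays, coded L3-S, had the same layout, with DiI labelled neurons and 20 neurons per pool, and show which differences L6-R did not share with them. DiI labelling, the code and the number of pooled neurons all differ between L6-R and L3-B and cannot be told apart. The meaning of the codes, the tissue that received DiI, the strain, sex and age of the mice and the number of animals do not appear in the sources used here. Signals are given below as that of the big and then that of the medium to small pool.

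The cell bodies in dorsal root ganglia belong to neurons that carry touch, limb position, temperature, itch and pain from the body to the spinal cord. Large neurons with thick myelinated axons mostly serve touch and limb position, and many of them make parvalbumin or the neurotrophin receptor encoded by Ntrk3. Small neurons mostly serve pain, temperature and itch, and one class of them, the peptidergic nociceptors, releases neuropeptides such as substance P. After its axon is cut or crushed a sensory neuron switches on a set of regrowth genes, among them Atf3, Sox11 and Sprr1a, and several neuropeptides.

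All 6 arrays carried neuronal RNA: the 16 pan-neuronal markers all had signals over 100 on every array, and their summed signal was 62938 and 64626 in L3-B and 83672 and 71631 in L6-R. The L6-R arrays correlated at 0.974 across genes and the L3-B arrays at 0.956, while an L6-R and an L3-B array correlated at 0.907 to 0.916. The L3-B arrays were no closer to each other than to the big L3-S array (0.956 and 0.964). With the medium to small L3-S array they correlated at 0.948 and 0.942. Genes are not independent replicates. RNA completeness and array controls varied from array to array. The Actb 3' to 5' signal ratio was 13.9 and 3.73 in L3-B and 8.31 and 8.42 in L6-R, so the L6-R values lay between those of L3-B. The 18 probe sets for hybridization controls had a geometric mean signal of 1113 and 873.9 in L3-B and of 2183 and 1166 in L6-R. Their part in the differences below was not tested.

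Expression differed between L6-R and L3-B over a broad set of genes. Differences are those of log2(signal + 32), each beside its standard error (SE) from a limma fit of code and size class to all 6 arrays (n = 2 arrays per code). Signals under 32, which 55.3% to 59.6% of probe sets had on each array, are called background here, and the added 32 shrinks differences that involve them. Of 9097 genes tested, 683 passed an adjusted p of 0.05, which is 7.51%. Of these, 424 were higher in L6-R (4.66%) and 259 were lower (2.85%). These shares of all genes tested are the background for the list counts of this fit below. They are not the background for list counts from other fits, such as those with an array left out. The higher genes differed by 0.87 to 5.02 log2 (median 1.41) and the lower genes by -0.87 to -4.33 log2 (median -1.33). Over all genes tested the median difference was 0.02 log2. All 683 genes differed in the same direction in the big pair and in the medium to small pair. In this fit, pairs that disagree lower the mean difference and add to the spread. The agreement was therefore largely set by the selection and is no separate support. Among the 424 higher genes, 41 had both L3-B signals under 32, and among the 259 lower genes 20 had both L6-R signals under 32. The count of 683 became 359 without the L6-R big array and 356 without the medium to small L6-R array, of which 305 and 326 were among the 683. Restricted to the brightest 25% of genes, 150 genes were higher and 149 lower (299 in all), so the excess of higher over lower genes was not seen there. Genes were tested if their mean over the 6 arrays was in the brighter 50%, so a gene at background in L3-B could enter through the arrays where it was high. Counts and medians of gene lists below are therefore over the members that entered and are given for the main lists without this filter too, where the median of all genes was -0.002 log2. In that fit 457 of 18193 genes passed, 66.7% of them higher, which is the background for the list counts without the filter. Another limit is the choice of probe set: of 80 named and called genes with several probe sets, 48 had at least 1 other probe set that was under 0.5 log2 in the direction of the call. The values of other probe sets are given below for some of these genes only. Averaging the probe sets of a gene kept 105 of 130 named calls and ended 24. It turned 1 more, Kcna6, to a difference of the opposite sign that did not pass. No label ties the pools to separate animals, so the p-values do not measure spread between animals. With 1 array per code and size class, they rest on the spread left after code and size class are fitted. That spread mixes unequal differences between the size classes with noise, which may be technical. It is blended with the spread of other genes (6.46 prior beside 2 residual degrees of freedom). The number of arrays limits the precision.

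**Figure D1:**
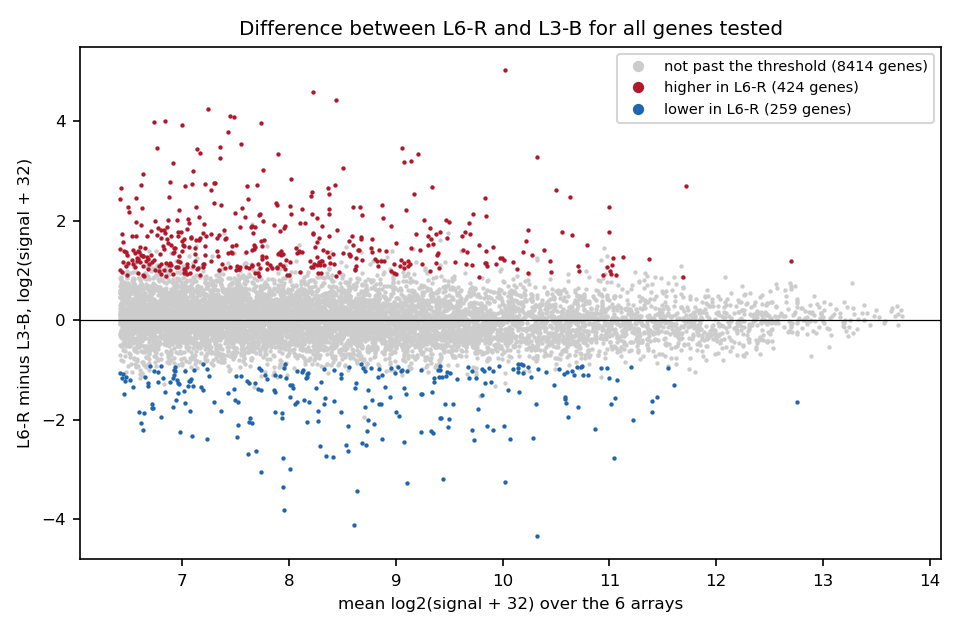
L6-R minus L3-B difference of each of the 9097 genes tested (vertical axis, log2(signal + 32)) against its mean over the 6 arrays (horizontal axis, same scale); red points are the 424 genes past the threshold and higher in L6-R, blue points the 259 lower, grey points the rest. Higher genes reach 5.02 log2 and lower genes reach -4.33 log2.

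Neuropeptide genes held the largest difference of all. Tac1 (chromosome 6), the precursor of substance P and neurokinin A, measured 167 and 74.8 on the L3-B arrays and 5435 and 4089.9 on those of L6-R. Both L6-R signals lay far above both L3-B signals, without overlap, a difference of 5.02 ± 0.24 log2 (adjusted p = 6.94e-05), or 32.5-fold on this scale. A dimmer Tac1 probe set did not follow and stood at -0.10 log2. L3-S was higher than L3-B too, at 1758 and 1429, a difference of 3.47 log2 (adjusted p = 0.00147), and L6-R exceeded L3-S by 1.55 log2 (adjusted p = 0.0136).

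Npy (chromosome 6), which encodes neuropeptide Y, a peptide that injured sensory neurons make, measured 22.2 and 31.5 on the L3-B arrays, 24.8 and 17.2 on those of L3-S and 849 and 1368 on those of L6-R. It stood out from background in the L6-R pools alone, by 4.24 ± 0.26 log2 against L3-B (adjusted p = 0.00017). Cartpt (chromosome 13), the precursor of the CART peptides, measured 16.4 and 3.3 on the L3-B arrays, 44.7 and 53.3 on those of L3-S and 473 and 738 on those of L6-R and differed by 3.91 ± 0.28 log2 (adjusted p = 0.000247). L3-S lay just above the background range for Cartpt, and L6-R lay above it by 2.95 log2 (adjusted p = 0.0017). Adcyap1, the precursor of PACAP, measured 2.3 and 19.3 on the L3-B arrays, 185 and 198 on those of L3-S and 429 and 446 on those of L6-R. Its order was L3-B, L3-S, L6-R, with L6-R over L3-B by 3.48 ± 0.24 log2 (adjusted p = 0.000219) and over L3-S by 1.07 log2 (adjusted p = 0.0531), which did not pass. Gal, the precursor of galanin, another peptide of injured sensory neurons, was named after its values were seen: 28.6 and 18.9 on the L3-B arrays, 46.0 and 30.7 on those of L3-S and 216 and 158 on those of L6-R, a difference of 1.97 ± 0.22 log2 from L3-B (adjusted p = 0.00141).

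Of 8 tested neuropeptide genes these 5 passed as higher, 0 as lower, and the median was 2.73 log2 (big pair 2.71, medium to small pair 2.56), beside 0.02 for all genes. Without the filter the list held 21 genes, of which 7 were higher and 0 lower, with a median of 0.32, and the brightest 25% of genes held 3 of them (median 0.03). All 5 also passed with either L6-R array left out. Calcb, the precursor of beta-CGRP, was bright in both codes and overlapped between them, with 3922 and 1755 on the L3-B arrays and 2424 and 2974 on those of L6-R (0.03 log2, adjusted p = 0.976). Nmb, the neuromedin B precursor, had the one large negative value of the list, 2298 and 982 on the L3-B arrays and 393 and 652 on those of L6-R (-1.51 log2, adjusted p = 0.0542), which did not pass. Of 21 neuropeptide genes with a probe set the rest were too dim to be tested, among them Penk, the enkephalin precursor, with 23.3 and 1.3 on the L3-B arrays, 5.6 and 21.2 on those of L3-S and 107 and 139 on those of L6-R. Genes of peptide processing and secretory granules did not move together: 2 of 10 were higher, 1 was lower and the median was 0.03, and 0 and 1 were higher without the L6-R big and the medium to small L6-R array. The granin Chgb was lower by 1.20 ± 0.23 log2 (adjusted p = 0.0157; 0.0582 and 0.207 without the L6-R big and the medium to small L6-R array).

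The promoters of the 3 peptide genes with the largest differences are shown because their genes were high together in L6-R; each is the 250 bases before the RefSeq start (build GRCm38.p6), 5' to 3' on the gene's strand. Capitals mark matches, on either strand, to the cyclic AMP response element TGACGTCA and to its core TGACG, which lies within it; a core on the opposite strand reads as CGTCA.
Tac1 (chr6:7554811-7555060, + strand): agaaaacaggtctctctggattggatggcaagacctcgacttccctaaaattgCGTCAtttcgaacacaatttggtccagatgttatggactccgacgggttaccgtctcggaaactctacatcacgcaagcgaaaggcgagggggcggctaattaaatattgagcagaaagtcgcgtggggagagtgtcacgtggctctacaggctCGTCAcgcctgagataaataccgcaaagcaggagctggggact
Npy (chr6:49822460-49822709, + strand): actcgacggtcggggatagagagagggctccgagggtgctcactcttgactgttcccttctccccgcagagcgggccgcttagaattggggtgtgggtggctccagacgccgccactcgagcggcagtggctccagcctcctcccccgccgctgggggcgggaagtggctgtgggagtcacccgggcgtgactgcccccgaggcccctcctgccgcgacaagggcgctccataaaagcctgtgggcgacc
Cartpt (chr13:99900684-99900933, - strand): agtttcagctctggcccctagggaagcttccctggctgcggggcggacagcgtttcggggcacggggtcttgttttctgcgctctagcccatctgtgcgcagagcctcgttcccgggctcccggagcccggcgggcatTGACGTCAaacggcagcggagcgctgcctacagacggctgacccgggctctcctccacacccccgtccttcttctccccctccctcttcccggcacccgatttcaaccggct
The Cartpt window holds the full element 112 bases before the start, the Tac1 window holds the core 197 and 43 bases before the start, and the Npy window holds neither. The full element was in 3.38% of the 325 genes called higher that have a promoter in the RefSeq table, beside 3.27% of the 7437 tested genes and, with each promoter counted singly, 1.55% of all 32851 promoters, where a gene counts once if any of its promoters matched. The core was in 26.5% of the higher genes, 32.7% of the tested genes and 17.8% of all promoters. A match describes the letters and is not evidence of a bound factor.

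**Figure D2:**
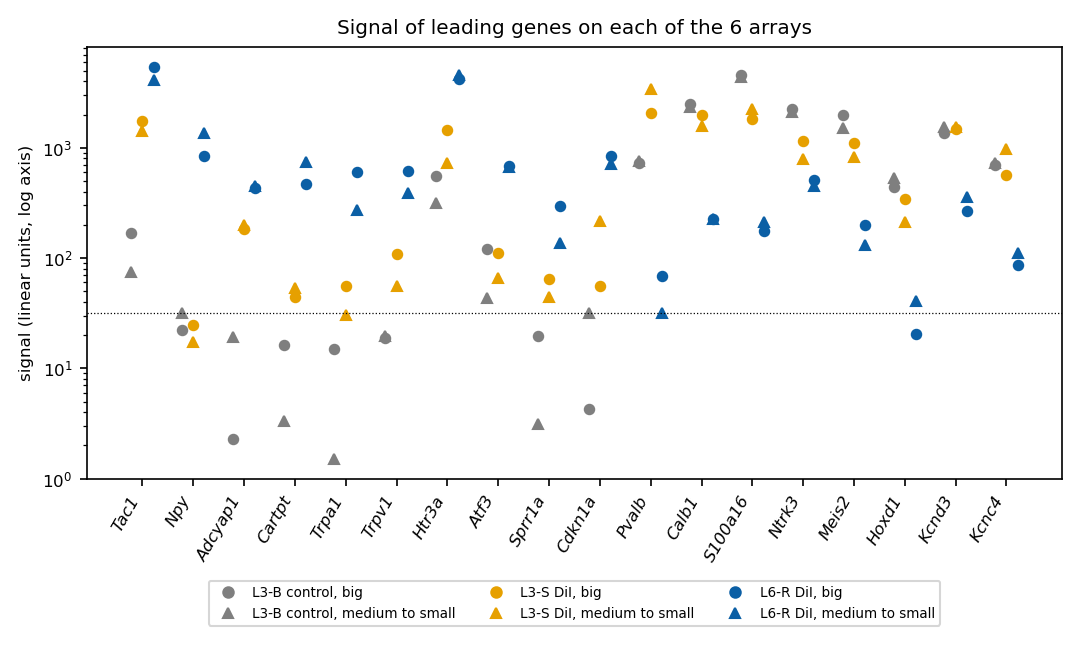
Signal on each of the 6 arrays (vertical axis, linear signal on a log scale; dotted line at 32) for 18 genes with large differences; grey is L3-B, orange L3-S and blue L6-R, circles are big and triangles medium to small neurons. The blue points of the genes from Tac1 to Cdkn1a lie above the grey points, and those from Pvalb to Kcnc4 lie below them, while the orange points lie between, beside L3-B, or, for Pvalb, above both.

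Some genes of pain-sensing neurons were higher in L6-R, 5 of 14 tested (35.7%), beside 4.66% of all genes tested. The channels that open to heat and irritants had the largest differences. Trpv1 (chromosome 11), the channel of heat and capsaicin, measured 18.7 and 19.6 on the L3-B arrays, 108 and 56.1 on those of L3-S and 616 and 392 on those of L6-R. Both L3-B pools were at background and both L6-R pools were above both L3-S pools; L6-R exceeded L3-B by 3.36 ± 0.25 log2 (adjusted p = 0.000275) and L3-S by 2.24 log2 (adjusted p = 0.00367). Trpa1, the channel of pungent irritants, measured 15.0 and 1.5 on the L3-B arrays, 56.1 and 30.2 on those of L3-S and 601 and 274 on those of L6-R. It showed the same order, with a difference of 3.47 ± 0.24 log2 from L3-B (adjusted p = 0.000224) and 2.57 log2 from L3-S (adjusted p = 0.00155). Trpv2, a related channel found in many larger sensory neurons, measured 304 and 388 on the L3-B arrays and 962 and 1033 on those of L6-R (1.45 ± 0.22 log2, adjusted p = 0.00614; 0.0503 without the L6-R big array). These 3 were the only called genes of 11 TRP channels tested (median 0.37). That share of 27.3% stands beside 4.66% higher among all genes tested. It is over the 11 that entered of 25 TRP channels with a probe set. Trpv1 and Trpa1, at background in L3-B, could enter through the arrays where they were high, which raises the share.

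Htr3a, a subunit of the serotonin-gated cation channel, was abundant in L6-R, with 557 and 314 on the L3-B arrays, 1441 and 731 on those of L3-S and 4166 and 4559 on those of L6-R. L6-R was above the other 4 arrays, by 3.28 ± 0.29 log2 over L3-B (adjusted p = 0.000592). Its partner subunit Htr3b was higher by 2.01 ± 0.32 log2 (adjusted p = 0.00748) and the subunit Chrna3 of nicotinic receptors by 2.65 ± 0.25 log2 (adjusted p = 0.000772), from L3-B signals near or under 32. Other Chrna3 probe sets stood between 0.07 and 1.93 log2. Gfra3, the co-receptor for artemin on nociceptors, measured 34.8 and 25.8 on the L3-B arrays and 476 and 311 on those of L6-R and was higher by 2.75 ± 0.25 log2 (adjusted p = 0.000592). The sodium channel Scn10a, restricted largely to nociceptors, differed by 1.62 ± 0.38 log2 (adjusted p = 0.0375; 0.109 without the medium to small L3-B array and 0.259 without the L6-R big array).

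In pooled RNA, fewer cells of a type and less RNA per cell cannot be told apart, here and for the neuron classes below. Of 14 nociceptor receptors and channels tested, 5 were higher and 1 was lower, with a median of 0.74 log2 (0.62 over 19 genes without the filter, with 5 higher). The ATP-gated channel subunit P2rx3, for example, was bright in every pool, with 2315 and 2321 on the L3-B arrays and 3247 and 2772 on those of L6-R (0.37 log2, adjusted p = 0.387). The prostacyclin receptor Ptgir, named after its values were seen, was the one lower (-0.99 log2, adjusted p = 0.0314; up to 0.292 when the L3-B medium to small or either L6-R array was left out).

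Among markers of non-peptidergic and itch neurons, 5 of 7 tested passed as higher and 0 as lower, with a median of 2.71 log2 (big pair 2.33, medium to small pair 2.75). Without the filter 5 of 13 were higher and the median was 1.13. Lgals3, a galectin, measured 13.8 and 2.8 on the L3-B arrays, 40.2 and 15.2 on those of L3-S and 585 and 634 on those of L6-R, a difference of 4.00 ± 0.25 log2 (adjusted p = 0.00017). Macrophages make Lgals3 as well; the summed signal of 23 blood and immune cell markers was 354 and 269 in L3-B and 451 and 1319 in L6-R, and its part in this difference was not tested. Plxnc1, a semaphorin receptor, measured 149.9 and 97.7 on the L3-B arrays, 908 and 692 on those of L3-S and 1518 and 1268 on those of L6-R, so that both labelled codes were above L3-B; L6-R differed by 3.21 ± 0.22 log2 (adjusted p = 0.000219; other probe sets 0.21 to 2.81). Osmr, the oncostatin M receptor subunit of itch neurons, measured 12.7 and 57.1 on the L3-B arrays, 65.8 and 33.3 on those of L3-S and 767 and 289 on those of L6-R, with the big pool the higher of the L6-R pools (3.01 ± 0.46 log2, adjusted p = 0.00606). Dimmer Osmr probe sets stood at -0.15 and 0.10 log2. Fxyd2, a sodium pump regulator, was higher by 2.54 ± 0.25 log2 and Tmem45b, a membrane protein of nociceptors, by 2.71 ± 0.37 log2. L3-S exceeded L3-B by 3.17 log2 for Fxyd2 (adjusted p = 0.00227) and by 1.74 log2 for Tmem45b (adjusted p = 0.0818). Neither gene passed in L6-R against L3-S. Other Fxyd2 probe sets stood between -0.11 and 2.60 log2 in L6-R against L3-B. Acpp, the fluoride-resistant acid phosphatase long used to stain this class, measured 56.0 and 77.2 on the L3-B arrays, 473 and 822 on those of L3-S and 561 and 664 on those of L6-R and did not separate the labelled codes (2.71 ± 0.24 log2 against L3-B, adjusted p = 0.000556; -0.03 log2 against L3-S). Other Acpp probe sets stood between -0.36 and 0.97 log2 in L6-R against L3-B.

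Of the genes that sensory neurons switch on after nerve injury, 10 of 19 tested (52.6%) were higher in L6-R, beside 4.66% of all genes tested. Atf3 (chromosome 1), a transcription factor that marks injured sensory neurons, measured 121 and 43.1 on the L3-B arrays, 110.0 and 65.9 on those of L3-S and 679.5 and 674 on those of L6-R. The L6-R pools were nearly equal and above all other arrays, while L3-S overlapped L3-B; L6-R exceeded L3-B by 2.73 ± 0.28 log2 (adjusted p = 0.000909) and L3-S by 2.59 log2 (adjusted p = 0.00254). Sox11, a factor that young and regrowing neurons express, measured 13 and 78.6 on the L3-B arrays, 122 and 52.5 on those of L3-S and 709 and 873 on those of L6-R (3.54 ± 0.43 log2, adjusted p = 0.00218). Sprr1a, a protein of regrowing axons, measured 19.6 and 3.1 on the L3-B arrays, 64.4 and 44.7 on those of L3-S and 294 and 136 on those of L6-R (2.46 ± 0.24 log2, adjusted p = 0.000801). The big pool was the higher of the L6-R pools for Sprr1a, and the pools of L3-B and L6-R did not overlap for either gene. Fst, the activin-binding protein follistatin, measured 30.9 and 29.6 on the L3-B arrays, 31.1 and 58.1 on those of L3-S and 295 and 335 on those of L6-R (2.48 ± 0.24 log2, adjusted p = 0.000763), and Tubb6, a beta-tubulin, measured 37.8 and 13.6 on the L3-B arrays and 984 and 904 on those of L6-R (4.11 ± 0.23 log2, adjusted p = 0.000127). A dimmer Tubb6 probe set stood at 0.13 log2.

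Of the 19 injury and regrowth genes tested, 0 were lower and all 19 had a positive difference, with a median of 1.00 log2 (big pair 1.13, medium to small pair 0.87). Without the filter 7 of 27 were higher and the median was 0.66. Without the L6-R big array 8 passed, and 7 passed without the L6-R medium to small or the L3-B big array. Some well known members did not pass: Gap43, a growth cone protein, measured 1909 and 2760.0 on the L3-B arrays and 4636 and 3859 on those of L6-R (0.87 log2, adjusted p = 0.0953). Jun, which axon injury also induces, measured 1394 and 1671 on the L3-B arrays and 1638 and 1574 on those of L6-R (0.07 log2). Csrp3, Ecel1, Arg1, Il6 and Reg3b, further injury genes, were too dim to be tested.

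The promoter of Sprr1a is shown because it was high together with the AP-1 family genes Atf3, Fos and Fosl2, although the Fosl2 call (0.92 log2, adjusted p = 0.041) was lost with each L3-B or L6-R array left out (up to 0.332, without the big L6-R array). Capitals mark the AP-1 letters TGANTCA, searched on both strands, 146 and 116 bases before the start; the letters TGACGTCA do not contain them.
Sprr1a (chr3:92485882-92486131, - strand, build GRCm38.p6, RefSeq): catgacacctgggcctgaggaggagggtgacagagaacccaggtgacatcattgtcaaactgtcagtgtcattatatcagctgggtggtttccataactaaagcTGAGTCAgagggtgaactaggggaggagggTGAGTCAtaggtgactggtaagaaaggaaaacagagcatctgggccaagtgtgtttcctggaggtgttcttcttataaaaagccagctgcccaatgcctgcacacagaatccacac
These letters were in 5.23% of the genes called higher with a promoter in the table and in 5.23% of the tested genes; they were in 9.77% of the genes called lower and 6.75% of all promoters.

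**Figure D3:**
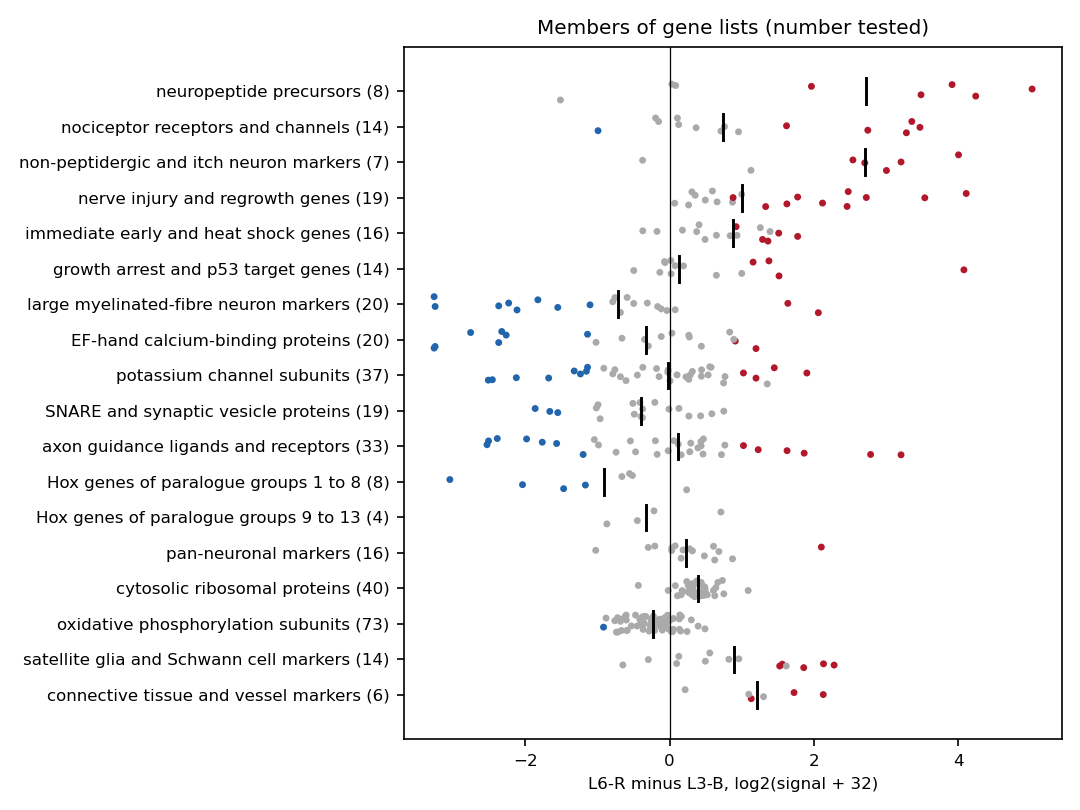
L6-R minus L3-B difference (horizontal axis, log2(signal + 32)) of each tested member of 18 gene lists, with the number tested in brackets; red points are genes past the threshold and higher, blue points lower, grey points not past it, and the black bar is the list's median. Only members that passed the brightness filter are drawn. The medians of the neuropeptide, non-peptidergic, injury, large myelinated-fibre and Hox 1 to 8 lists are 2.73, 2.71, 1.00, -0.72 and -0.91, and over all members with a probe set they are 0.32, 1.13, 0.66, -0.56 and -0.11.

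Signalling through gp130, the receptor subunit shared by interleukin 6 family cytokines, was represented by 8 tested genes. Of these, 2 were higher (25%, beside 4.66% of all genes tested). These were Osmr and Socs3, a feedback inhibitor of the pathway, with 296 and 203 on the L3-B arrays, 219 and 295 on those of L3-S and 652 and 1041 on those of L6-R (1.63 ± 0.30 log2, adjusted p = 0.0136; 0.113 without the medium to small L6-R array). Il6st, which encodes gp130 itself, differed by 0.80 log2 (adjusted p = 0.257). The list's median was 0.63 over the 8 that entered of 10 genes with a probe set, and 0.39 without the filter.

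Among cell cycle arrest genes, Cdkn1a (chromosome 17), which encodes the inhibitor p21, measured 4.3 and 31.5 on the L3-B arrays, 56.3 and 218 on those of L3-S and 847 and 718 on those of L6-R. L6-R exceeded L3-B by 4.08 ± 0.37 log2 (adjusted p = 0.000592) and L3-S by 2.45 log2 (adjusted p = 0.0118). Gadd45g, a growth arrest gene, was higher by 1.52 ± 0.24 log2 (adjusted p = 0.00758; 0.0607 without the L6-R big array). The rest of the list did not follow: 4 of 14 passed as higher and the median was 0.14, and 1 passed without the L6-R big array and 2 without the medium to small L6-R array. Of 17 unfolded protein and integrated stress response genes, 0 passed in limma (median 0.12), with 2 at an unadjusted p under 0.05.

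Immediate early genes, which neurons switch on within minutes of activity or handling, were unequal between the size classes. Of 16 immediate early and heat shock genes 5 were higher and 0 lower, and the median was 0.41 log2 in the big pair and 1.53 in the medium to small pair. The list's median over both pairs was 0.88, and without the filter 1 of 19 was higher (median 0.92). With the L6-R big array left out 7 passed (median 1.30), with the medium to small L6-R array left out 1 passed (median 0.64) and with the medium to small L3-B array left out 2 passed (median 0.43). Fos measured 1465 and 869.9 on the L3-B arrays and 2387 and 4511 on those of L6-R (1.51 ± 0.36 log2, adjusted p = 0.039; 0.132 without the medium to small L3-B array and 0.343 without the medium to small L6-R array). Dusp1, a phosphatase of MAP kinases, was steadier: 496 and 417 on the L3-B arrays, 624 and 585 on those of L3-S and 1514 and 1762 on those of L6-R, a difference of 1.78 ± 0.23 log2 (adjusted p = 0.00301), which also passed with each L3-B or L6-R array left out. The summed signal of glia markers was highest in the same L6-R medium to small pool (23770), and its part in these differences was not tested.

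The promoter of Dusp1 is shown for the same cyclic AMP response element, which starts 143 bases before the gene's start, with a further core 191 bases before it.
Dusp1 (chr17:26508473-26508722, - strand, build GRCm38.p6, RefSeq): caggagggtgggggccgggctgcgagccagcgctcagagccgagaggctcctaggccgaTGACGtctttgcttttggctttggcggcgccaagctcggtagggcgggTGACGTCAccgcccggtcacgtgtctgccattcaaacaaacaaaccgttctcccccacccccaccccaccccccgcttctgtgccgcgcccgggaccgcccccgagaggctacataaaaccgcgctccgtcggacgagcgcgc

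Among genes of large myelinated-fibre neurons, 8 of 20 tested (40%) were lower in L6-R, beside 2.85% of all genes tested. In this list 2 were higher, and the median was -0.72 log2 (big pair -0.85, medium to small pair -0.46). Pvalb (chromosome 15), the calcium buffer parvalbumin of muscle spindle afferents, measured 723 and 756 on the L3-B arrays, 2084 and 3413 on those of L3-S and 69.1 and 31.9 on those of L6-R. L6-R was below both other codes, 3.26 ± 0.32 log2 lower than L3-B (adjusted p = 0.000801), and L3-S was the highest. Ntrk3, the receptor for neurotrophin 3, measured 2243 and 2087 on the L3-B arrays, 1156 and 791 on those of L3-S and 505 and 448 on those of L6-R, without overlap between codes, with L6-R 2.11 ± 0.23 log2 below L3-B (adjusted p = 0.00134; other probe sets -2.25 to -0.01).

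Vamp1, a synaptic vesicle protein of fast-conducting neurons, measured 3618 and 4917 on the L3-B arrays, 3250.4 and 3667 on those of L3-S and 1339 and 1506 on those of L6-R (-1.55 ± 0.22 log2, adjusted p = 0.00453). The secreted protein gene Tafa1 was lower by 2.23 ± 0.24 log2 and the calcium sensor Vsnl1 by 2.37 ± 0.24 log2. The sodium channel Scn1a was 1.10 ± 0.24 log2 lower (adjusted p = 0.0268), a call lost without the medium to small L3-B array (0.0825), the L6-R big array (0.0776) or the medium to small L6-R array (0.311). Ntrk2, the receptor for brain-derived neurotrophic factor on some touch neurons, went the other way and was 1.64 ± 0.29 log2 higher (adjusted p = 0.0118). Without the medium to small L6-R array the Ntrk2 difference was 1.22 log2 and the call was lost. Other Ntrk2 probe sets stood between -0.23 and 2.07 log2.

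Calcium-binding proteins of the EF-hand family were among the largest falls: of 20 tested, 7 were lower and 2 higher, with a median of -0.32 (without the filter 5 of 23 lower, median -0.20). Calb1 (chromosome 4), the buffer calbindin, measured 2493 and 2334 on the L3-B arrays, 1976 and 1562 on those of L3-S and 227 and 224 on those of L6-R and was 3.25 ± 0.22 log2 lower (adjusted p = 0.000219); dimmer probe sets stood between -1.69 and -0.02 log2. Caln1, a relative of calmodulin, measured 319 and 432 on the L3-B arrays, 614 and 552 on those of L3-S and 31.6 and 24.0 on those of L6-R (-2.76 ± 0.24 log2, adjusted p = 0.000586). Calb2, the buffer calretinin, measured 145 and 195 on the L3-B arrays, 151 and 516 on those of L3-S and 15.1 and 2.0 on those of L6-R, both L6-R pools being at background (-2.33 ± 0.42 log2, adjusted p = 0.0122). Cabp7, a calcium-binding protein of the Golgi, was lower by 2.26 ± 0.22 log2 in L6-R (adjusted p = 0.000772) and differed by -1.42 log2 in L3-S (adjusted p = 0.0241).

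The largest fall of all was S100a16 (chromosome 3), a calcium-binding protein of the S100 family, with 4609 and 4372 on the L3-B arrays, 1838 and 2248 on those of L3-S and 176 and 212 on those of L6-R. The codes did not overlap: L6-R was 4.33 ± 0.23 log2 below L3-B (adjusted p = 8.88e-05), or 20.1-fold on this scale; its probe set is of a design that can bind more than 1 transcript, and a second probe set stood at -3.75 log2. It was the only lower gene of 10 annexins and S100 proteins tested, and 0 of them were higher. Chn2, a regulator of the GTPase Rac, measured 848 and 1479.9 on the L3-B arrays, 867 and 628 on those of L3-S and 19.9 and 54.8 on those of L6-R (-4.10 ± 0.32 log2, adjusted p = 0.000316). F2r, the thrombin receptor, stayed well above background while it fell, with 4770.1 and 4794 on the L3-B arrays, 2881 and 2542 on those of L3-S and 753 and 608 on those of L6-R (-2.76 ± 0.22 log2, adjusted p = 0.000325). Further large falls were those of the prostaglandin F receptor Ptgfr (-3.81), the copine Cpne4 (-3.42), Insyn2b, a relative of an inhibitory synapse protein (-3.34), and the matrix link protein Hapln1 (-2.98).

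Further large rises outside the groups above included Plp2, a membrane protein, with 14.1 and 35.9 on the L3-B arrays, 259 and 411 on those of L3-S and 1072 and 1601 on those of L6-R (4.58 ± 0.22 log2, adjusted p = 6.94e-05), a gene for which all 3 codes lay apart. Comp, an extracellular matrix protein, measured 87.5 and 41.7 on the L3-B arrays, 269 and 133 on those of L3-S and 2024 and 1940.4 on those of L6-R (4.42 ± 0.26 log2, adjusted p = 0.000144). The protease Pappa2 was higher by 3.78 ± 0.30 log2 and the adaptor Bex1 by 3.96 ± 0.29 log2. L3-S exceeded L3-B too, by 1.99 log2 for Pappa2 (adjusted p = 0.0241) and 1.61 log2 for Bex1 (adjusted p = 0.0485). Sqor, an enzyme of sulfide oxidation, was higher by 3.98 ± 0.29 log2, with a second probe set at 0.13.

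Ion channel families changed member by member. Of 37 potassium channel genes tested, 8 were lower and 4 higher, and the median of -0.02 had no steady sign: it was 0.16 without the L6-R big array and -0.20 without the medium to small L6-R array. Without those arrays 3 and 5 were lower and 2 and 1 higher. Kcnq5, a channel of the M current, measured 915 and 1157 on the L3-B arrays, 279.5 and 338 on those of L3-S and 169 and 154 on those of L6-R (-2.46 ± 0.23 log2, adjusted p = 0.000719; other probe sets -2.16 to 0.34). Kcnc4, a fast voltage-gated channel, measured 694 and 725 on the L3-B arrays, 564 and 978 on those of L3-S and 86.2 and 111 on those of L6-R (-2.51 ± 0.25 log2, adjusted p = 0.000814), and Kcnd3, an A-type channel, measured 1366 and 1556 on the L3-B arrays, 1473 and 1541 on those of L3-S and 269 and 356 on those of L6-R (-2.12 ± 0.22 log2, adjusted p = 0.00112; other probe sets -0.76 to 0.21). For Kcnc4 and Kcnd3 the L3-S pools overlapped those of L3-B. Kcna6 was called higher (1.90 log2), but another of its probe sets stood at -2.93 log2, so its direction is uncertain.

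Accessory subunits of sodium channels were higher: Scn3b by 2.58 ± 0.34 log2 (adjusted p = 0.00323) and Scn2b by 2.27 ± 0.36 log2 (adjusted p = 0.00758), with another Scn3b probe set at -0.26 and others at 0.07 and 3.58 for Scn2b. L3-S exceeded L3-B by 2.01 log2 for Scn3b (adjusted p = 0.0353) and by 1.94 log2 for Scn2b (adjusted p = 0.0534). With Scn10a these made 3 higher and, with Scn1a, 1 lower of 9 sodium channel subunits (median -0.14). Of 12 calcium channel genes 3 were higher and 3 lower. Cacna1c, an L-type channel, was higher by 1.82 ± 0.26 log2 (adjusted p = 0.0042) and Cacna1h, a T-type channel of sensory neurons, by 1.70 ± 0.24 log2 (adjusted p = 0.00452). For Cacna1h a second probe set stood at 0.12 log2, and L3-S exceeded L3-B by 1.37 log2 (adjusted p = 0.0451). Cacna2d1, the subunit that binds gabapentin, was named after its values were seen: 281 and 497 on the L3-B arrays, 637 and 397 on those of L3-S and 1486 and 1747 on those of L6-R (2.02 ± 0.33 log2, adjusted p = 0.00779). Cacng5 and Cacng2, which assist glutamate receptors, were lower by 2.12 ± 0.29 and 2.11 ± 0.28 log2. Hcn3, a pacemaker channel, was higher by 1.79 ± 0.23 log2 (adjusted p = 0.00301) and the GABA-A subunit Gabrb1 by 2.71 ± 0.31 log2 (adjusted p = 0.00159), both from L3-B signals under 32.

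Genes of position and wiring differed too. Of 8 tested Hox genes of paralogue groups 1 to 8, set up in the embryo as a code of body level, 4 were lower and 0 higher, with a median of -0.91 log2 (big pair -0.93, medium to small pair -0.79). Without the filter the list held 19 genes, 4 of them lower, and the median was -0.11. Without the L6-R big array 3 were lower and without the medium to small L6-R array 2 were. Hoxd1 (chromosome 2), a Hox gene of nociceptors, measured 436 and 527 on the L3-B arrays, 344 and 211 on those of L3-S and 20.6 and 41.1 on those of L6-R (-3.04 ± 0.30 log2, adjusted p = 0.000793). Hoxb5 measured 546 and 458 on the L3-B arrays and 88.7 and 107 on those of L6-R (-2.04 ± 0.23 log2, adjusted p = 0.00157), and Hoxc8 of 101 and 167 on the L3-B arrays, 178 and 165 on those of L3-S and 26.7 and 26.9 on those of L6-R (-1.47 ± 0.25 log2, adjusted p = 0.00996; 0.0798 without the medium to small L6-R array). Of 4 tested Hox genes of groups 9 to 13, 0 passed in limma (median -0.33) and 2 had an unadjusted p under 0.05. Hoxa9 was bright in all pools (3059.7 and 3129 in L3-B, 2805 and 2524 in L6-R, -0.22 log2) and Hoxc10 stood at 0.71 log2 (adjusted p = 0.105).

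Among transcription factors of sensory neurons, Meis2 fell from 1969.7 and 1504 in L3-B to 197 and 130.4 in L6-R, with L3-S at 1094 and 827 (-3.18 ± 0.22 log2, adjusted p = 0.000219); other probe sets stood between -2.75 and 0.24. Runx1, the factor of non-peptidergic neurons, was called higher (2.22 log2), but its other probe sets ran from -0.84 to 1.57. The pan-sensory factors Isl1 and Pou4f1, also pan-neuronal markers here, did not pass. Of 17 such factors 3 were higher and 1 lower (median 0.47).

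Of 33 axon guidance genes tested, 7 were lower and 6 higher (median 0.12); without the L6-R big array 4 were lower and 3 higher. Both neuropilins, co-receptors for secreted semaphorins, were lower: Nrp2 measured 840.1 and 655 on the L3-B arrays, 404 and 507 on those of L3-S and 87.6 and 123 on those of L6-R (-2.51 ± 0.26 log2, adjusted p = 0.000909; other probe sets -2.15 to 0.27). Nrp1 measured 1091 and 1274 on the L3-B arrays, 1053 and 916 on those of L3-S and 251 and 301 on those of L6-R (-1.98 ± 0.23 log2, adjusted p = 0.00177). The secreted semaphorin Sema3e was lower by 2.53 ± 0.32 log2 (adjusted p = 0.00277), and the netrin receptor Unc5b was higher by 2.79 ± 0.22 log2 (adjusted p = 0.000321). For Unc5b, L3-S exceeded L3-B too, by 1.65 log2 (adjusted p = 0.0164). Cadherins and protocadherins held 5 higher and 1 lower of 16 (median 0.22), with Pcdh10 at 18.4 and 30.1 on the L3-B arrays and 284 and 229 on those of L6-R (2.36 ± 0.25 log2, adjusted p = 0.00114). Among SNARE and synaptic vesicle genes 3 of 19 were lower, namely Vamp1, the Rab3 effector Rph3a (-1.66 log2) and Stxbp6 (-1.86 log2; adjusted p 0.0546 without the L3-B big array and 0.119 without the L6-R big array); 0 were higher and the median was -0.40. The calcium sensor of vesicle release Syt1 was higher, with 386 and 335 on the L3-B arrays, 1104 and 1175 on those of L3-S and 1880.1 and 1447 on those of L6-R (2.10 ± 0.23 log2, adjusted p = 0.00134); other probe sets stood at -0.05 to 0.81.

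Which of these differences L3-S lacked was asked in the same fit. A gene was counted as lacked where it passed in L6-R against L3-B, passed in L6-R against L3-S in the same direction, and differed by under 0.5 log2 between L3-S and L3-B. The L6-R minus L3-S contrast is the test of whether the differences from L3-B are unequal, since the shared L3-B arrays cancel in it. L3-S lacked 124 of the 683 differences, which is 1.36% of genes tested: 60 higher in L6-R (0.66%) and 64 lower (0.704%). Without the L6-R big array 45 genes met the rule, 35 of them among the 124, and without the medium to small L6-R array 56 did, 48 of them among the 124. In all, 208 of the 683 (30.5%) passed against L3-S in the same direction, 23.6% of the higher and 41.7% of the lower genes; against L3-S 1.26% of genes tested passed as higher and 1.91% as lower. A further 473 (69.3%) did not pass against L3-S, which does not show that they were alike. Within 0.5 log2 of L3-S were 150 of the 683 (22%). The share of all genes tested within that limit was not counted, so the 22% cannot be called high or low. L3-S itself differed from L3-B in 93 genes (1.02%), 84 higher (0.923%) and 9 lower (0.0989%), and L6-R from L3-S in 289 (3.18%).

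Of the higher differences that L3-S lacked, Npy was the largest (4.24 log2 in L6-R, -0.15 in L3-S). Next were Sqor (3.98 and 0.31), Osmr (3.01 and 0.34), the ribonuclease Rnase4 (2.94 and 0.23), Mical1, an enzyme that oxidises actin (2.83 and 0.21), and Atf3 (2.73 and 0.14). The TRAF adaptor gene Tifa (2.62 and 0.50), Fst (2.48 and 0.28), the adaptor Stac (2.31 and 0.31) and Agtr1b, an angiotensin receptor (2.16 and 0.28), completed the 10 largest. Rnase4 measured 9.6 and 22.4 on the L3-B arrays, 16.6 and 32.4 on those of L3-S and 384 and 289 on those of L6-R, and Agtr1b of 79.9 and 61.9, 126 and 66.4 and 498 and 366 in the same order. For both genes the L6-R pools lay above the other 4 arrays. Gal, Socs3, Dusp1, Gadd45g, Trpv2, Cacna2d1 and Ifi35, an interferon-response gene (1.82 and 0.13), were also among the 60.

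Of the lower differences that L3-S lacked, Calb1 was the largest (-3.25 log2 in L6-R, -0.45 in L3-S), followed by Rasgrf1, an activator of Ras (-2.72 and -0.10), Sema3e (-2.53 and -0.32), Kcnc4 (-2.51 and 0.07) and the aldehyde dehydrogenase Aldh1a7 (-2.39 and -0.26). Vsnl1 (-2.37 and -0.02), the immunoglobulin heavy chain gene Ighm (-2.23 and -0.48), Kcnd3 (-2.12 and 0.05), Cacng5 (-2.12 and 0.05) and the transporter gene Slc35f3 (-2.06 and 0.02) came next. Vsnl1 measured 2360.2 and 1925 on the L3-B arrays, 1956 and 2256 on those of L3-S and 352 and 426 on those of L6-R, so L3-S overlapped L3-B and L6-R lay apart. A second Cacng5 probe set stood at 0.31 log2. The Ighm probe set is of a design that can bind more than 1 transcript, and its other probe sets stood between -1.50 and 0.14 log2. Vamp1, Nrp1, Hoxc8 and Chgb were also among the 64. At the limit of 0.5 log2, the last genes inside were Rasgrp2 (0.48 in L3-S), Tox2 (-0.50) and Tifa (0.50), and the first outside were Cmbl (0.51), Lcorl (0.52) and Tesc (-0.53).

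**Figure D4:**
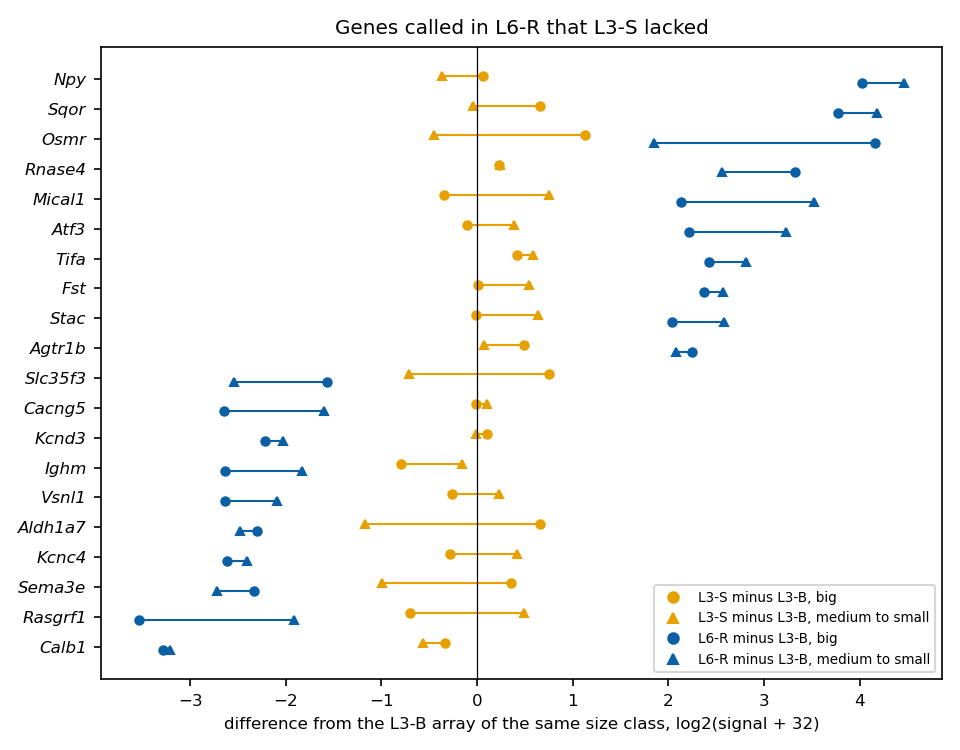
Difference from the L3-B array of the same size class (horizontal axis, log2(signal + 32)) for the 10 largest higher and the 10 largest lower genes that L3-S lacked; blue is L6-R, orange is L3-S, circles are big and triangles medium to small pools, and a line joins the pair. The blue pairs lie well to one side of 0 and the orange pairs around 0, and for Osmr, Mical1, Aldh1a7, Sema3e, Slc35f3 and Rasgrf1 the orange pair spreads over more than 1 log2.

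Other differences were close to those of L3-S, which shares the L3-B arrays as its control. Rarres1, a retinoid-responsive gene, measured 6.2 and 3.2 on the L3-B arrays, 226 and 274 on those of L3-S and 166 and 268 on those of L6-R, which lay 2.73 log2 (L6-R) and 2.94 log2 (L3-S) above L3-B. The orphan receptor Adgrg2 measured 408 and 431 on the L3-B arrays, 2217 and 2556 on those of L3-S and 2843 and 2657 on those of L6-R (2.62 and 2.42). The phosphodiesterase Pde1c (2.67 and 2.41) and Pcdh10 (2.36 and 2.11) were likewise close. Other probe sets in L6-R against L3-B ran from -0.42 to 1.20 for Pde1c and from -0.11 to 2.02 for Pcdh10. On the lower side Pcp4l1, a calmodulin-binding protein, measured 2699 and 2084 on the L3-B arrays, 998 and 459 on those of L3-S and 554 and 435 on those of L6-R (-2.20 and -1.76), and Prima1, the membrane anchor of acetylcholinesterase, was -1.66 and -1.96. The ubiquitin ligase Herc3 (-1.68 and -1.21), the adaptor Pid1 (-1.64 and -1.19), the lipid phosphodiesterase Gdpd3 (-1.60 and -1.34) and Spry4, an inhibitor of Ras signalling (-1.42 and -0.95; L6-R adjusted p 0.105 without the medium to small L6-R array) completed this set.

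Another pattern went in opposite directions. Of the 259 genes lower in L6-R, 20 were at least 0.5 log2 higher in L3-S than in L3-B and also differed between L6-R and L3-S. Among the 424 higher genes, 0 were that much lower in L3-S. Rises were the commoner direction in L3-S among all genes tested, where 0.923% passed as higher and 0.0989% as lower than L3-B. The share of all genes past 0.5 log2 in L3-S was not counted, so the 20 and the 0 give no result about lower or higher genes as a set. Pvalb was the largest of the 20, at -3.26 log2 in L6-R and 1.81 in L3-S (adjusted p = 0.0435). Its gap between L6-R and L3-S was -5.07 ± 0.32 log2 (adjusted p = 0.000566). Hs3st2, which modifies heparan sulfate, measured 1023 and 539 on the L3-B arrays, 1293 and 1497 on those of L3-S and 109 and 112 on those of L6-R. Car2, a carbonic anhydrase of large sensory neurons, measured 475 and 620.0 on the L3-B arrays, 868 and 1231 on those of L3-S and 44.7 and 168 on those of L6-R, and the secreted protein gene Tafa2 of 1004 and 1001 on the L3-B arrays, 1428 and 1581 on those of L3-S and 157 and 256 on those of L6-R. For these 3 genes every L3-S pool was above, and every L6-R pool below, both L3-B pools, although the L3-S differences of 0.88, 0.89 and 0.57 log2 did not pass on their own. Calb2 and Caln1 belong to the same set. On the higher side, 2 genes were higher still in L3-S and passed in L6-R against L3-S in the opposite direction: Cbln2, a synapse organiser, with 29.1 and 46.7 on the L3-B arrays, 570.3 and 844 on those of L3-S and 236 and 399.8 on those of L6-R, and the intermediate filament gene Ina, with 2.1 and 7.9 on the L3-B arrays, 336 and 1074 on those of L3-S and 63.0 and 77.8 on those of L6-R (L6-R against L3-B adjusted p = 0.0395; 0.259 without the big L6-R and 0.126 without the medium to small L3-B array).

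Other lists held few calls. Of 10 neurotrophin and GDNF family receptors 2 were higher and 1 lower (median 0.25), and of 6 sodium pump subunits and their regulators 2 were higher (median 0.62). The called members were Ntrk2, Gfra3 and Ntrk3, and Fxyd2 and Atp1b3; Atp1b3 (1.03 log2, adjusted p = 0.0389) did not pass without the big L3-B (0.122), the big L6-R (0.428) or the medium to small L6-R array (0.111). Of 7 ionotropic glutamate receptor subunits 2 were higher, Grik1 by 1.10 and Grin3a by 0.98 log2, but 0 passed with either L6-R array left out. Of 9 synaptotagmins 3 were higher and 1 lower, and 1 was higher without the L6-R big array and 2 without the medium to small L6-R array. Of 14 chloride channels and cotransporters 2 were lower, Ano1 by 1.27 ± 0.27 and Ano4 by 1.04 ± 0.23 log2, and neither passed with an L6-R array left out. Of 10 ATP-gated, acid-sensing and mechanosensitive channels 1 was lower, P2rx6 by 1.11 ± 0.26 log2, and 0 with either L6-R array left out. Of 8 opioid and other inhibitory receptors 1 was higher, Mrgpre by 1.27 ± 0.22 log2, and 0 with either L6-R array left out.

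Genes of general cell functions showed small shifts. Of 73 subunits of oxidative phosphorylation, the respiratory chain and ATP synthase, 1 was lower and 0 higher; the median was -0.41 log2 in the big pair and -0.03 for medium to small pools, and it was 0.01 without the L3-B big array and -0.46 without the medium to small L3-B array, where 7 were lower. At an unadjusted p under 0.05 there were 12, all lower. Of 40 cytosolic ribosomal proteins 0 passed in limma and 6 had an unadjusted p under 0.05; 38 differences were positive, with a median of 0.39 log2 (big pair 0.18, medium to small pair 0.61). Of 19 cholesterol synthesis enzymes 0 passed and 3 had an unadjusted p under 0.05 (median 0.32). The Actb 3' to 5' ratio differed between the L3-B arrays, and these medians differed between the big and the medium to small pair. A fit with that ratio as a covariate is given in the last section for the counts of called genes. The part of RNA completeness in these list shifts was not tested.

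Marker RNA of other cell types was measured alongside. The 21 satellite glia and Schwann cell markers with a probe set had a summed signal of 14265 and 12753 in L3-B, 15152 and 19003 for L3-S and 17334 and 23770 for L6-R; 9 of them were over 100 on every array and 2 were under 32 on every array. Of 14 tested, 5 were higher in L6-R and 0 lower (1 of 21 higher without the filter), with a median of 0.29 log2 in the big pair and 1.71 in the medium to small pair. Without the medium to small L6-R array 2 were higher (median 0.45), without the medium to small L3-B array 3 were, and without the L6-R big array 7 were (median 1.57). Apoe, a lipid carrier made by satellite glia, measured 540.3 and 913 on the L3-B arrays, 2764 and 3745 on those of L3-S and 2394 and 5224 on those of L6-R (2.28 ± 0.25 log2, adjusted p = 0.0013). Mbp, a myelin protein, measured 468 and 332 on the L3-B arrays, 480.2 and 1073 on those of L3-S and 1179 and 2857 on those of L6-R (2.13 ± 0.39 log2, adjusted p = 0.0139), with other probe sets from -0.03 to 2.91. Both labelled medium to small pools were the higher of their code for these genes, and Pmp22, another myelin protein, did not pass, at 2969.7 and 2876 on the L3-B arrays and 3974 and 4305 on those of L6-R.

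Connective tissue and vessel markers (21 genes, 5 of them under 32 on every array, Pecam1 and Cdh5 of vessel walls being among these) summed to 749 and 615 in L3-B, 1705 and 1881 for L3-S and 1436 and 2682 for L6-R. Of 6 tested, 3 were higher (median 1.22), led by the matrix proteoglycan Dcn (154 and 89.1 in L3-B, 506 and 771 in L6-R, 2.13 ± 0.33 log2, adjusted p = 0.0062). A second Dcn probe set stood at -0.17 log2. Over the 21 genes without the filter the median was 0.46. Without the medium to small L6-R array 1 was higher and the median was 0.75, and without the medium to small L3-B array 1 was higher. Blood and immune cell markers (23 genes, 14 under 32 on every array, Ptprc and C1qa among them) summed to 354 and 269 in L3-B and 451 and 1319 in L6-R, so the L6-R medium to small pool stood apart. The neutrophil gene S100a8, named after its values were seen, was 14.8 and 7.8 in L3-B and 0.8 and 440.4 in L6-R, and Csf1r, a macrophage receptor, was 64.0 and 25.2 and 69.3 and 122. Of 10 interferon-response and MHC class I genes 1 was higher, Ifi35 (median of the 10: big pair 0.82, medium to small pair 0.11). The part of these other cell types in the differences above was not tested. The marker sum of large myelinated-fibre neurons was 88428 and 75405 in L3-B and 65348 and 55374 in L6-R, and that of non-peptidergic and itch neurons was 2068 and 3167 in L3-B and 6501 and 5823 in L6-R.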

How the data were processed

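The deposited values are linear microarray signal intensities, 1 per probe set and array, that the authors had scaled so that the mean after trimming 2% of values at each end is nearly equal on the 6 arrays, as the values show. RNA was purified with a PicoPure kit, per the labels' protocols. The method of summarising probes, the amplification and the scanner settings were not stated in the sources used here. Of 45037 probe sets, 34945 carried 1 gene symbol in the platform annotation, 932 several and 9160 none; 64 control probe sets were set aside.

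Each gene was represented by its brightest probe set, the brighter 50% of 18193 genes were kept, and log2(signal + 32) was fitted with limma 3.58.1 in R 4.3.3 as code plus size class over all 6 arrays, which leaves 2 residual degrees of freedom. P-values were adjusted by Benjamini-Hochberg over 9097 genes, with a threshold of 0.05. The script was tested on simulated data.

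The groups, the 44 gene lists and the comparison were chosen with earlier results of these data known. Genes were named by rule: the 12 largest differences per direction; the 10 largest per direction that L3-S lacked; the 6 largest per direction close to L3-S; the 6 largest that were opposite in L3-S; and up to 4 per list by smallest p. Genes named beyond these were chosen after their values were seen. Alternatives changed the added constant, the filter, the normalization, the probe set rule, the variance model, the block and the arrays. Promoters are from RefSeq.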

Additional observations from a re-analysis of the deposited data

Results flagged for a closer look

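The difference from L3-B was unequal between L6-R and L3-S for 210 of the 683 genes called in L6-R, by limma's test of L6-R minus L3-S. For 208 of these L6-R lay beyond L3-S in the direction of its own difference from L3-B, and for 2 it lay short of L3-S. Below, values are L6-R minus L3-S in log2 with that test's adjusted p.

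For 8 of the genes named above, L6-R was lower than L3-B while L3-S was at least 0.5 log2 higher. The values were -5.07 for Pvalb (adjusted p = 0.000566), -3.36 for Caln1 (0.000566), -3.32 for Hs3st2 (0.00148) and -2.99 for Calb2 (0.00826). They were -3.11 for Car2 (0.00152), -2.72 for Tafa2 (0.00148), -3.20 for Ano1 (0.00107) and -3.02 for Stxbp6 (0.00749). Ano1, a calcium-activated chloride channel, measured 65.9 and 86.0 on the L3-B arrays, 248 and 571 on those of L3-S and 7.8 and 18.0 on those of L6-R. Stxbp6, a SNARE-binding protein, measured 379 and 168 on the L3-B arrays, 455 and 814 on those of L3-S and 31.8 and 65.6 on those of L6-R. The L3-B pools were unequal for Stxbp6, and L6-R lay below both.

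The 2 genes higher in both labelled codes but less so in L6-R were Cbln2 (-1.09, adjusted p = 0.0402) and Ina (-2.64, adjusted p = 0.00709). The L3-S medium to small pool was the highest of all arrays for both genes.

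The hybridization controls, which are added to every sample before the array is hybridised and enter no comparison here, had a geometric mean signal on the L6-R big array that was 2.21 times the mean of the L3-B arrays. On the L6-R medium to small array the value was 1166, inside the range of the other arrays.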

How the results depend on the processing

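The fit gave 683 genes called in L6-R minus L3-B, 424 genes called higher in L6-R, 259 genes called lower in L6-R and 124 genes that L3-S lacked. Adding 1 instead of 32 left 49 lacked genes, and without the filter 152 genes were lower and 45 were lacked. In the brightest 25% of genes 299 were called, 150 higher and 149 lower, with 52 lacked; fewer genes were tested there. Array weights gave 229 lacked genes. With the Actb ratio as a covariate 1590 were called, 935 higher and 655 lower, with 488 lacked; that fit has 1 residual degree of freedom, and the cause was not tested. Leaving out 1 array at a time gave 356 to 995 called genes, 219 to 614 higher, 112 to 381 lower and 45 to 180 lacked. The highest counts of called genes, which equal those of the 4 arrays alone, came without an L3-S array.

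Without the replicate block, that is without size class, there were 786 genes called in L6-R minus L3-B, 659 of them among the 683, with 478 genes called higher in L6-R, 308 genes called lower in L6-R and 159 genes that L3-S lacked. Arrays of one size class did not deviate together (correlation of deviations 0.07 for L3-B with L6-R, -0.21 for L3-B with L3-S and 0.01 for L3-S with L6-R).

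Of 135 named called genes, 97 passed with every single array left out. Averaging all probe sets of a gene turned Kcna6 to -0.28 log2 (adjusted p = 0.477); no other named and called gene changed sign under these alternatives. Signals near background limit what can be said of dim genes.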
